A study of Mus musculus with 20 samples.

Results

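The genes described are long noncoding RNAs of 2 kinds in mouse brain. The first kind, Gas5, Snhg1, Snhg6, Snhg8 and Snhg12, carries small nucleolar RNAs (snoRNAs) in its introns. The second kind, Malat1, Neat1, Meg3 and Miat, is known for working in the nucleus. Rows were taken by gene symbol from a table of 45700 genes, and 8 of the 9 named genes had one (4 snoRNA hosts and 4 nuclear RNAs). Snhg1 was not analysed here. All 8 averaged 1 FPKM or more over the libraries, the filter for testing, which 15247 genes passed in all.

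The question was how far these RNAs travel with polysomes, and whether that changes in spinal muscular atrophy (SMA), a disease of motor neurons that follows from too little SMN protein. SMA mice were of the "Taiwanese" model, Smn-/-; SMN2tg/0, which lack the mouse Smn gene and carry the human SMN2 transgene. Control mice were littermates, Smn-/+; SMN2tg/0, so the transgene was shared and the controls kept 1 intact Smn allele. All were on a congenic FVB background. Whole brains were taken at the early-symptomatic stage, postnatal day 5, with 2 replicates of each genotype and fraction, and at the late-symptomatic stage, postnatal day 7, with 3 of each. Cytoplasmic lysates were run on sucrose gradients, and RNA was pooled from all fractions (total RNA) or from the polysomal fractions alone (polysomal RNA). This gave 8 groups and 20 libraries. Smn was deleted in the germline, and whole brain mixes neurons, glia, vessels and blood.

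Most snoRNAs of vertebrates are cut out of the introns of host genes. The spliced exons of hosts such as Gas5 and the Snhg genes carry no long conserved reading frame. They are known as targets of nonsense-mediated decay, a pathway that degrades RNAs when a ribosome stops too early, so ribosomes do meet them in the cytoplasm. Malat1 is retained in nuclear speckles, Neat1 builds the paraspeckle, Meg3 is an imprinted, maternally expressed RNA, and Miat (also called Gomafu) forms its own nuclear domains in neurons.

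All positions are on GRCm38. Gas5 (ENSMUSG00000053332) lies at chr1:161034422-161038539 on the + strand and Snhg6 (ENSMUSG00000098234) at chr1:9941959-9944118 on the - strand. Snhg8 (ENSMUSG00000104960) lies at chr3:123507552-123508404 on the - strand and Snhg12 (ENSMUSG00000086290) at chr4:132308623-132311024 on the + strand. Malat1 (ENSMUSG00000092341) lies at chr19:5795690-5802672 on the - strand, a short way from Neat1 (ENSMUSG00000092274) at chr19:5824708-5845478 on the same strand. Meg3 (ENSMUSG00000021268) lies at chr12:109541001-109571726 on the + strand and Miat (ENSMUSG00000097767) at chr5:112213228-112229395 on the - strand. Their longest annotated transcripts run from 776 bases (Snhg8) and 816 bases (Snhg6) to 14548 bases (Meg3) and 20771 bases (Neat1). None is annotated as protein-coding.

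Genes of ribosomal proteins start with a C and an unbroken run of pyrimidines, the 5′ terminal oligopyrimidine (TOP) tract. Snhg genes and Gas5 are known for the same kind of start, so the first bases of the members are shown. Each line gives 10 bases before and 30 bases from the annotated start (RefSeq, GRCm38.p6), 5′ to 3′, with a C followed by at least 4 bases that are each C or T in capitals where it begins at the start.
Gas5 (chr1:161035156-161035195, + strand): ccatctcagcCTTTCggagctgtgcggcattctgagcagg
Snhg8 (chr3:123508307-123508346, - strand): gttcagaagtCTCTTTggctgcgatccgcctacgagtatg
Snhg12 (chr4:132308668-132308707, + strand): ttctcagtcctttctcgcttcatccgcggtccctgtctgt
Snhg1 (chr19:8723477-8723516, + strand): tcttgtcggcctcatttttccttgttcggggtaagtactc
Malat1 (chr19:5802643-5802682, - strand): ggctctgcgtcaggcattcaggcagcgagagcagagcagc
Meg3 (chr12:109540986-109541025, + strand): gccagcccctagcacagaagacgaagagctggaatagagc
Miat (chr5:112228919-112228958, - strand): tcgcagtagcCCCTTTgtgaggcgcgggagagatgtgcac
Promoter entries were found for 7 of the 9 genes, and Snhg6 and Neat1 had none. The run was at the start in Gas5 (5 bases, at 1 of its 2 annotated starts), Snhg8 (6 bases) and Miat (6 bases). Of all 32851 promoter entries, 2.51% held it on the gene's own strand. In Snhg12 a run of pyrimidines spans the annotated start. When the run could begin up to 5 bases either side, 3 of 5 host entries and 2 of 4 nuclear entries held it, as did 18.3% of all entries. With at least 7 pyrimidines after the C, no member held it, against 0.779% of all entries. A match is only a description of these letters.

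Expression is given as FPKM, fragments scaled by transcript length and by the mapped fragments of the library, so levels of different genes are compared per length and each value is relative to its own library. No read counts are in the table, and the lowest value above 0 was 0.01 FPKM in every library, so depth is unknown and no counting interval is given. Brain markers were present: Snap25, Syt1, Rbfox3, Map2, Gfap, Aqp4 and Mbp were above 14 FPKM in all 20 libraries. Of 26 cell type markers, Tubb3 alone was listed at 0 anywhere, in 2 libraries. The SMA early-symptomatic total library of replicate 1 stood apart from its partner, with 158 against 362 FPKM of Gas5 and 398 against 702 FPKM of Rpl21, a ribosomal protein mRNA. Late-symptomatic replicate 3 of both genotypes was low in Meg3 and Miat.

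Some rows can share reads with a neighbour. The alignment and quantification programs were run at default settings, at which TopHat and Cufflinks take a library as unstranded. A row for Gm20417 shares the listed locus of Malat1 and averaged 298 FPKM. The gene annotation used for positions has no Gm20417 over Malat1, so its strand is not given. Gm37376 (403 FPKM) lies within Malat1 on the other strand. Gm26906 (30.6 FPKM) lies opposite Meg3 and Gm26953 (34.5 FPKM) opposite Miat. The mRNA genes Zbtb37 (17.5 FPKM) and Mcmdc2 (1.39 FPKM) overlap the ends of Gas5 and Snhg6 on the other strand. The values of these members are uncertain to that extent.

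All 8 RNAs were less abundant in polysomal than in total RNA in every group, and 7 were well separated. The snoRNA hosts came first. Gas5 in control late-symptomatic brain measured 318, 273 and 326 FPKM in the total libraries and 75.6, 72.1 and 68.0 FPKM in the polysomal libraries. The means were 306 ± 28.6 FPKM (SD, n = 3) and 71.9 ± 3.82 FPKM (SD, n = 3), so the polysomal level was 23.5% of the total level. Every polysomal library was below every total library. The difference of log2(FPKM + 0.1), polysomal minus total, was -2.08 ± 0.08 (SE; limma adjusted p = 0.000822). This log2 difference is called polysome association from here on, and a gene was called at an unadjusted p under 0.05, with adjusted p given by Benjamini-Hochberg over all tested genes.

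Snhg8, host of the H/ACA snoRNA Snora24, was depleted as well. In control late-symptomatic brain it measured 74.7, 69.0 and 74.7 FPKM in total and 15.9, 13.5 and 16.5 FPKM in polysomal RNA, with a polysome association of -2.25 ± 0.09 (SE; limma adjusted p = 0.000765). In SMA late-symptomatic brain the values were 85.0, 84.7 and 87.0 FPKM in total and 15.4, 13.8 and 15.8 FPKM in polysomal RNA. Again no library of one fraction reached the other. Snhg6 stood at 57.7 ± 4.83 FPKM (SD, n = 3) in total and 11.6 ± 1.64 FPKM (SD, n = 3) in polysomal RNA of late-symptomatic controls, a polysome association of -2.31 ± 0.12 (SE; limma adjusted p = 0.0017).

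Snhg12 was the least depleted of the hosts. It measured 22.0, 21.7 and 21.6 FPKM in total and 8.48, 9.87 and 8.12 FPKM in polysomal RNA of late-symptomatic controls, 40.5% of the total mean. Its polysome association was -1.30 ± 0.08 (SE; limma adjusted p = 0.00308). Total Snhg12 was the steadiest value among the members, from 19.1 to 22.4 FPKM over all 10 total libraries.

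Malat1, the most abundant of the 8, had a value within the range of the snoRNA hosts. In late-symptomatic controls it measured 1033, 1085 and 1019 FPKM in total and 205, 242 and 189 FPKM in polysomal RNA, a polysome association of -2.31 ± 0.10 (SE; limma adjusted p = 0.00119). Neat1, the least abundant, measured 2.50, 2.78 and 2.89 FPKM in total and 0.54, 0.90 and 0.57 FPKM in polysomal RNA, a polysome association of -1.90 ± 0.19 (SE; limma adjusted p = 0.00916). In both genes the fractions did not overlap. The polysomal values of Neat1 were at or under 1.44 FPKM in every library, and its change is understated by the pseudocount of 0.1.

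Miat was intermediate and varied more between replicates. It measured 52.8, 46.4 and 40.5 FPKM in total and 25.7, 21.6 and 11.5 FPKM in polysomal RNA of late-symptomatic controls, a polysome association of -1.32 ± 0.32 (SE; limma adjusted p = 0.0806). Without control replicate 2 the value was not called (-1.43). In late-symptomatic SMA the value of -1.19 ± 0.33 (SE) was not called without replicate 1 (-1.13) and without replicate 2 (-1.19).

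Meg3 differed from the rest. It measured 177, 196 and 125 FPKM in total and 162, 161 and 89.9 FPKM in polysomal RNA of late-symptomatic controls, and the 2 fractions overlapped. Its polysome association was -0.30 ± 0.30 (SE; limma adjusted p = 0.593), and polysomal Meg3 stood at 82.9% of total Meg3. In late-symptomatic SMA the values were 143, 140.0 and 83.7 FPKM in total and 95.4, 94.6 and 51.3 FPKM in polysomal RNA, again with overlap, and the polysome association was -0.62 ± 0.34 (SE; limma adjusted p = 0.302). Without SMA replicate 3 that difference was called (-0.57). Total and polysomal libraries with the same number were not treated as pairs, since the labels do not pair them, yet a replicate number was left out of both fractions together, and polysomal Meg3 was below total Meg3 in all 6 same-numbered late pairs. With the replicate number as a block, Meg3 was called lower on polysomes in late-symptomatic controls (limma adjusted p = 0.149) and in late-symptomatic SMA (limma adjusted p = 0.0292). Without the block, Meg3 was called lower in early-symptomatic controls, at -0.85 ± 0.23 (SE), a call that was lost at the same value when all genes with any value above 0 were kept.

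**Figure D1:**
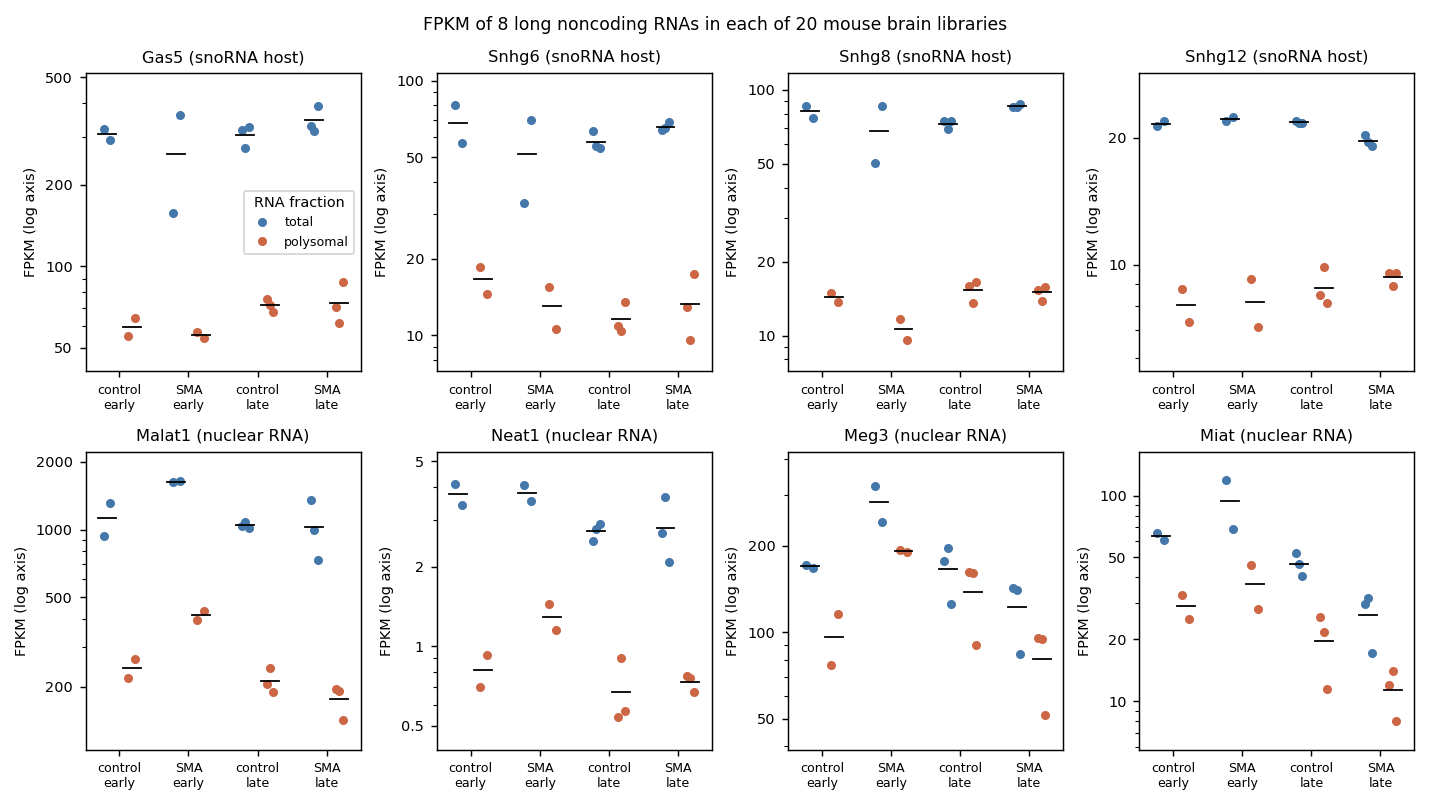
FPKM (log axis) of each RNA in each library, by genotype and stage, with total RNA in blue and polysomal RNA in orange; each point is 1 library and each black line a group mean. Total and polysomal points are apart in every group for 7 RNAs, and overlap for Meg3 in late-symptomatic brain.

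Counted over the groups, the 8 members were called lower on polysomes as follows. In early-symptomatic controls all 8 were called, against 13.6% of tested genes, and 2 (Gas5 and Snhg8) passed adjustment, which 1.32% of tested genes did in either direction. In early-symptomatic SMA 7 were called, Meg3 being the exception (-0.54 ± 0.18, SE, and called under 5 of the alternatives), against 6.94% of tested genes. Snhg6 lost this call with the replicate block (-1.91), and Miat with all genes of any value above 0 kept or without the variance trend (-1.33 in both). None passed adjustment there, as 0.334% of tested genes did. In late-symptomatic controls 7 were called, against 10.6%, and 6 passed adjustment, against 7.12% in either direction. In late-symptomatic SMA 7 were called, against 11.9%, and the same number, 6, passed adjustment, against 11%.

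Meg3 was the least depleted member in every group, with Miat and Snhg12 next to it. The 4 snoRNA hosts had a median polysome association of -2.20, -2.0, -2.17 and -2.29 in early control, early SMA, late control and late SMA brain. The 4 nuclear RNAs had -1.60, -1.41, -1.61 and -1.48. The median of all tested genes lay between 0 and 0.05, and that of 13101 protein-coding genes between 0.02 and 0.08. The ranges of hosts and nuclear RNAs overlapped: Malat1 and Neat1 lay among the hosts, and Snhg12 lay beside Miat. In late controls Snhg6, Malat1, Snhg8, Gas5 and Neat1 followed each other by steps no larger than their SE summed, then came Miat and Snhg12 together, and Meg3 stood last. No test was made between the 2 kinds.

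Against other genes the depletion was deep. In late-symptomatic controls 1.74% of tested genes were lower than Snhg6, 1.92% lower than Gas5 and 2.80% lower than Snhg12. For Malat1 the share was 1.75%, for Miat 2.75% and for Meg3 13.4%. Long intergenic noncoding RNAs as a class (319 tested genes) had a median of -0.27 in these libraries. The median of that class was nearer to 0 than the value of any member.

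**Figure D2:**
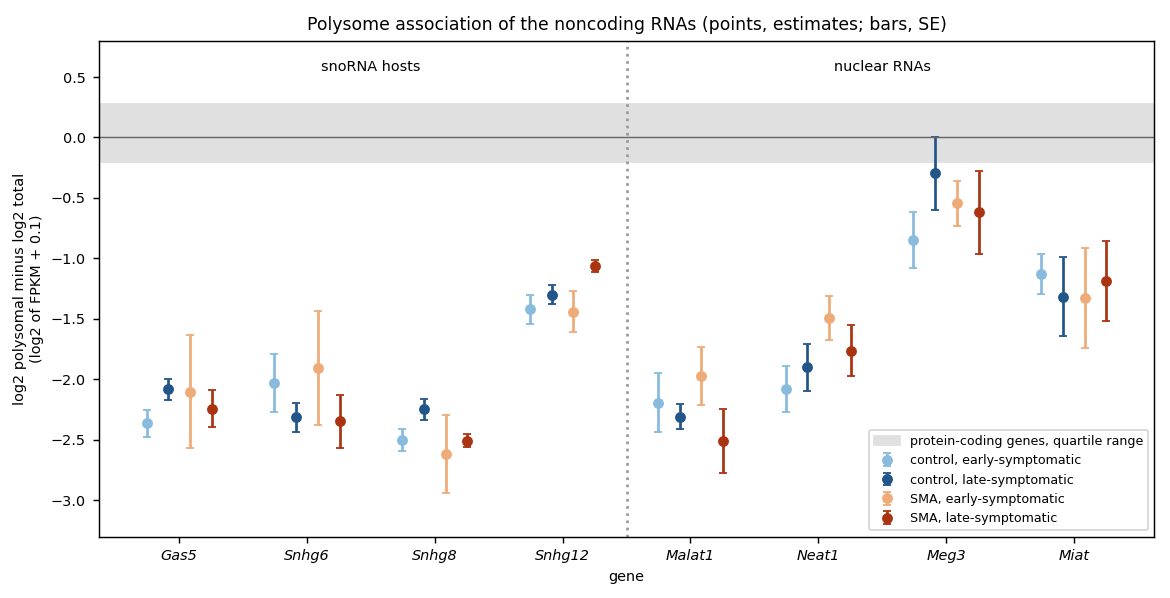
Polysome association (difference of log2(FPKM + 0.1), polysomal minus total; points, limma estimates; bars, SE) of each RNA in 4 groups, with the grey band spanning the quartiles of protein-coding genes. All points but those of Meg3 lie at or below -1.07, and Meg3 lies between -0.85 and -0.30.

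Other snoRNA hosts were taken as a list for comparison, all in late-symptomatic control brain, where 10.6% of tested genes were called lower. Of 15 further noncoding hosts 12 were tested, and 10 were called lower and 0 higher, with a median of -1.14. Dancr (-2.26) and Snhg20 (-1.78) were lowest. Snhg14 (-0.24, not called) and Snhg3 (-0.12, not called) were highest. Of 19 protein-coding hosts, most of them ribosomal protein genes, 13 were called lower and 2, Ncl (0.29) and Nop58, higher, with a median of -0.72. Rps12 (-1.86) and Rpsa (-1.53) were lowest. Nop58 (0.39), a core protein of box C/D snoRNPs, and Eif4a1 (0.29, not called), a helicase of translation initiation, were highest.

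Of 10 other nuclear noncoding RNAs 8 were tested, and 1 of these, Rn7sk, was listed at 0 in every total library, so no fold is given for it. Of the remaining 7, 4 were called lower and 0 higher, with a median of -0.92. Firre (-0.66) and Rmst (-0.92) were among the 4. Mirg (-2.0) and Rian (-1.95), imprinted RNAs of the same chromosomal domain as Meg3, were lowest. Rian measured 1070.0, 987 and 878 FPKM in total and 267, 296 and 204 FPKM in polysomal RNA, without overlap, beside the overlapping values of Meg3. Ftx (-0.26, not called) and Airn (-0.23, not called) were highest. A further list, drawn up as cytoplasmic noncoding RNAs, was also depleted. That label was not tested and is uncertain for Rmrp. All 3 tested were called lower, from Rmrp (-4.09), the RNA of ribonuclease MRP, and H19 (-3.07) to 2900097C17Rik (-1.13).

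The mRNAs of proteins tied to these RNAs had list medians from 0.11 to 0.18, beside 0.07 for protein-coding genes, and 14.8% of tested genes were called higher. Of 14 nonsense-mediated decay factors 6 were called higher on polysomes and 0 lower, with a median of 0.18, from Smg6 (-0.18, not called) and Smg5 (-0.07, not called) up to Upf3b (0.34) and Eif4a3 (0.34). Of 5 paraspeckle proteins 2 were called higher, Sfpq (0.20) and Pspc1 (0.20). Rbm14 (-0.02) and Nono (0.06) were lowest and not called. Of 8 snoRNP proteins 4 were called higher and 0 lower, namely Nop10 (0.22), Dkc1 (0.22), Nop58 and Fbl (0.32), the methyltransferase fibrillarin. Nop56 (-0.09) and Gar1 (-0.07) were lowest and not called.

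Mitochondrially encoded mRNAs, which cytosolic ribosomes do not translate, served as a further mark. Of 13, 4 (mt-Co1, mt-Co3, mt-Atp6 and mt-Atp8) were listed at 0 in 6 or 10 libraries and are given no fold. The other 9 were all called lower, with a median of -2.29, from mt-Nd1 (-3.09) and mt-Nd2 (-2.73) to mt-Nd6 (-1.64) and mt-Nd5 (-1.45). Of 5 abundant cytosolic mRNAs 1 was called lower, Eef1a1 (-0.73), and 0 higher. Gapdh (-0.08), Actb (0.26) and Ppia (0.38) were not called, and Tuba1a was listed at 0 in 4 libraries.

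**Figure D3:**
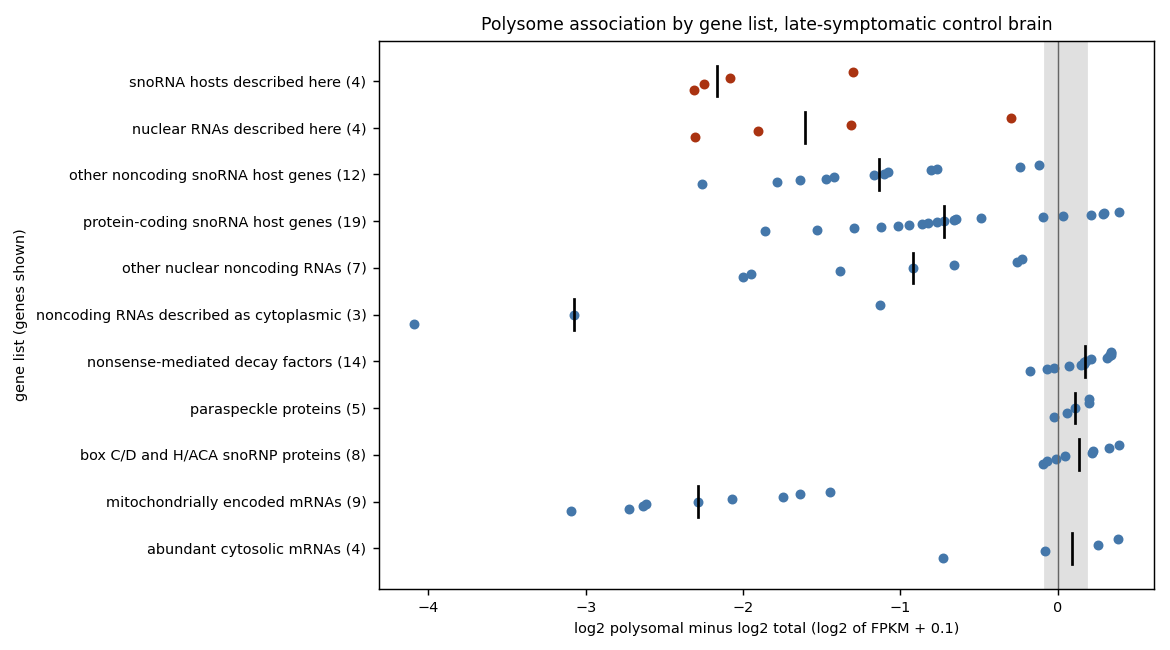
Polysome association (difference of log2(FPKM + 0.1), polysomal minus total) in late-symptomatic control brain; each point is 1 tested gene that no library lists at 0, black lines are medians and the grey band spans the quartiles of protein-coding genes. The described hosts (median -2.17) and nuclear RNAs (median -1.61) lie left of the band, beside mitochondrial mRNAs (median -2.29), and the decay, paraspeckle and snoRNP proteins lie in or near it.

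SMA and control brains were then compared within each fraction. In bulk tissue, fewer cells of a type and less RNA per cell cannot be told apart. At the early-symptomatic stage Meg3, Malat1 and Neat1 were higher in SMA in 1 or both fractions, and no snoRNA host was called. Snhg8 in polysomal RNA, 14.9 and 13.7 FPKM in controls and 11.7 and 9.59 FPKM in SMA, was called lower under 5 alternatives (from -0.44 to -0.43), the replicate block among them. Here that block joined same-numbered control and SMA libraries, which the labels do not link. Total Meg3 measured 171 and 168 FPKM in controls and 323 and 242 FPKM in SMA, without overlap, a log2 difference of 0.72 ± 0.18 (SE; limma adjusted p = 0.551). It was the 1 member called in early total RNA, where 8.25% of tested genes were called, and it did not pass adjustment, which 0.164% did.

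Polysomal RNA gave 3 calls at that stage, against 12.5% of tested genes. Polysomal Meg3 measured 76.7 and 115 FPKM in controls and 194 and 190.2 FPKM in SMA, a log2 difference of 1.03 ± 0.23 (SE; limma adjusted p = 0.386). Polysomal Malat1 measured 219 and 266 FPKM in controls and 397 and 435 FPKM in SMA, a log2 difference of 0.78 ± 0.15 (SE; limma adjusted p = 0.381). Polysomal Neat1 measured 0.70 and 0.93 FPKM in controls and 1.44 and 1.15 FPKM in SMA, a log2 difference of 0.61 ± 0.20 (SE; limma adjusted p = 0.394). None of these ranges overlapped, and none passed adjustment, which 0.649% of tested genes did. With 2 libraries against 2, a lack of overlap says little by itself. Total Snhg12 did not overlap between genotypes at this stage either, at a log2 difference of 0.04, and was not called. Total Malat1 in SMA, at 1623 and 1639 FPKM, also lay above the controls, at 933 and 1308 FPKM, but was not called. In 1 model over all 20 libraries it was called (0.56), without passing adjustment.

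With 2 replicates per genotype these early calls were fragile. Meg3 in total RNA was not called without either control (0.74 without replicate 1 and 0.71 without replicate 2) and not in 1 model over all 20 libraries (0.72). Polysomal Malat1 (0.85 and 0.72) and Meg3 (1.02 and 1.04) were not called without SMA replicate 1 or without replicate 2. With 1 replicate left out, polysomal Neat1 kept its call only without control replicate 2 and otherwise lay between 0.43 and 0.76. Early differences also moved with transcript length: over quartiles of protein-coding genes from short to long, the median log2 SMA minus control was -0.21, -0.04, 0.06 and 0.18 in total RNA and -0.21, -0.08, 0.01 and 0.15 in polysomal RNA. After a correction for length, polysomal Neat1, the longest member, stood at 0.21 and was not called, as with 6 further alternatives, while Malat1 and Meg3 kept their calls.

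At the late-symptomatic stage 4 members were called in total RNA, against 9.54% of tested genes. Snhg8 was higher in SMA, 85.0, 84.7 and 87.0 FPKM against 74.7, 69.0 and 74.7 FPKM, a log2 difference of 0.23 ± 0.04 (SE; limma adjusted p = 0.238). Snhg6 was higher as well, 64.3, 65.3 and 68.8 FPKM against 63.2, 55.4 and 54.4 FPKM, a log2 difference of 0.20 ± 0.07 (SE; limma adjusted p = 0.471). Snhg12 went the other way, 20.3, 19.5 and 19.1 FPKM in SMA against 22.0, 21.7 and 21.6 FPKM in controls, a log2 difference of -0.15 ± 0.04 (SE; limma adjusted p = 0.333). Gas5 was not called.

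Miat was lower in late-symptomatic SMA. Total Miat measured 29.6, 31.9 and 17.1 FPKM in SMA and 52.8, 46.4 and 40.5 FPKM in controls, a log2 difference of -0.87 ± 0.27 (SE; limma adjusted p = 0.431). Every SMA library lay below every control library. None of the 4 passed adjustment, which 0.111% of tested genes did. Snhg8 and Snhg12 were called in all 6 fits that left out 1 replicate, but neither they nor Snhg6 were called in 1 model over all 20 libraries, and Snhg12 was not called with both late replicates 3 left out (-0.13). Nor was Snhg6, which was then at 0.13 and was not called with the replicate block either (0.20). Miat was not called without control replicate 1 (-0.78) or 2 (-0.87). With 1 replicate left out, Snhg6 kept its call only without control replicate 1 and otherwise lay between 0.16 and 0.22. Total Meg3, at 143, 140.0 and 83.7 FPKM in SMA and 177, 196 and 125 FPKM in controls, was not called (-0.46). The replicate block called it lower in SMA (-0.46), with or without the length correction, as did leaving out both late replicates 3 (-0.40). None of these Meg3 calls passed adjustment.

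Late polysomal RNA gave no call among the members by limma at an unadjusted p under 0.05, where 10.7% of tested genes were called and 0.0918% passed adjustment. Polysomal Meg3 measured 95.4, 94.6 and 51.3 FPKM in SMA and 162, 161 and 89.9 FPKM in controls. The low values in both genotypes were those of replicate 3, and at each number SMA was below control. The numbers are not known to link control and SMA brains. Same-numbered late libraries of the 2 genotypes correlated between -0.09 and 0.03 over all tested genes. Polysomal Miat measured 11.9, 14.1 and 7.98 FPKM in SMA and 25.7, 21.6 and 11.5 FPKM in controls, with overlap and in the same order at each number. Both were called lower in SMA without control replicate 3 and under 5 other alternatives, among them the replicate block (-0.78 for Meg3 and -0.74 for Miat) and 1 model over all 20 libraries. None of these passed adjustment.

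**Figure D4:**
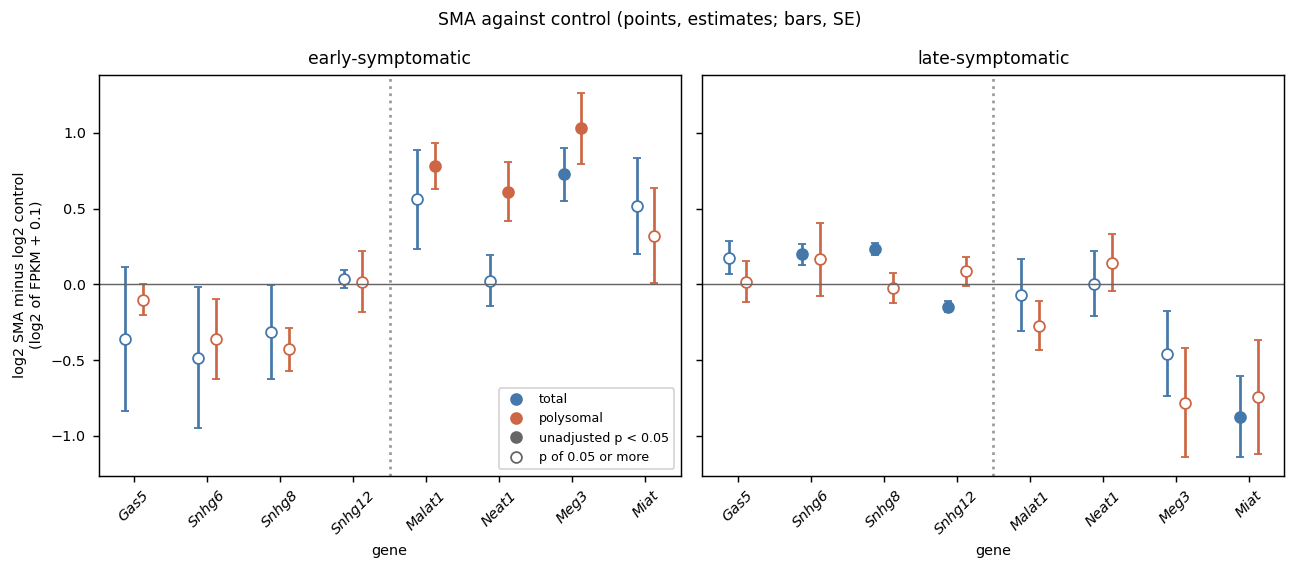
SMA minus control difference of log2(FPKM + 0.1) for each RNA, early-symptomatic on the left and late-symptomatic on the right, in total (blue) and polysomal (orange) RNA; points are limma estimates, bars SE and filled points an unadjusted p under 0.05. The filled early points are nuclear RNAs above 0, and the filled late points are Snhg6 and Snhg8 above 0 and Snhg12 and Miat below 0, all in total RNA.

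Cell type markers moved in the same comparisons, and their part in these results was not tested. Endothelial markers were lower in SMA: all 3 (Cldn5, the most abundant, with Pecam1 and Flt1) were called in early total, late total and late polysomal RNA, and Cldn5 alone in early polysomal RNA. Their summed level in late total RNA was 33.7, 38.9 and 44.0 FPKM in controls and 19.7, 22.3 and 19.8 FPKM in SMA. Both tested choroid plexus markers, Ttr and Folr1, were higher in late SMA in each fraction. Of 5 neuronal markers Map2 was called higher in SMA in early total (0.37) and late total RNA (0.11). Of 4 astrocyte markers Aldoc was called higher in early total, late total and late polysomal RNA. No marker of endothelium or choroid plexus was listed at 0 in any library. Xist, which marks female cells, was at 1 FPKM or more in 4 of 10 total libraries, namely SMA early replicate 1, control late replicates 1 and 2 and SMA late replicate 3.

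The related genes called between genotypes that are named next were chosen after their values were seen. The shares of all tested genes called in these 4 comparisons are those given above, 8.25%, 12.5%, 9.54% and 10.7%. Of the 12 further noncoding hosts, Snhg11 (0.32) was called higher and Dancr (-0.65) lower in early total RNA, Snhg11 (0.74) higher in early polysomal RNA, Zfas1 (0.39) higher in late total RNA, and none in late polysomal RNA. Of the protein-coding hosts Rpl23, Rps12 and Rpsa were called lower in early polysomal RNA (from -0.64 to -0.34). Of the other nuclear RNAs Mirg (0.79) was called higher in early polysomal RNA and Ftx (-0.44) lower in late total RNA. No gene of these 3 lists passed adjustment in any of the 4 comparisons. Of all list and marker genes only Tubb3 did, in early polysomal RNA, where it is listed at 0 in some libraries.

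The change in polysome association between genotypes, that is the polysomal minus total difference in SMA minus that in controls, was tested as an interaction. At the early-symptomatic stage 0 of 8 members were called by limma at an unadjusted p under 0.05, against 2.32% of tested genes. At the late-symptomatic stage 2 hosts were called in opposite directions, against 2.07%. The SMA minus control difference in polysome association was -0.26 ± 0.11 (SE; limma adjusted p = 1) for Snhg8 and 0.23 ± 0.10 (SE; limma adjusted p = 1) for Snhg12. Each was called in 1 of 6 fits that left out 1 replicate. The other 6 members were not called at either stage by this fit. Meg3 was called with a lower polysome association in late-symptomatic SMA under some alternatives. These were the replicate block (-0.32), the block with the length correction (-0.27) and both late replicates 3 left out (-0.37). None of these passed adjustment.

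Stage was compared within each genotype and fraction. From 32.7% to 42% of tested genes were called in these comparisons, and stage cannot be told apart from any difference in how the early and late libraries were made. In SMA polysomal RNA, where 41% of tested genes were called, all 4 nuclear RNAs fell from early to late. Malat1 fell from 397 and 435 FPKM to 195, 192 and 142 FPKM, a log2 difference of -1.25 ± 0.17 (SE; limma adjusted p = 0.0226). Miat fell from 46.1 and 28.2 FPKM to 11.9, 14.1 and 7.98 FPKM, a log2 difference of -1.70 ± 0.35 (SE; limma adjusted p = 0.0398). The log2 difference was -0.74 ± 0.12 (SE; limma adjusted p = 0.0289) for Neat1 and -1.31 ± 0.32 (SE; limma adjusted p = 0.0555) for Meg3.

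No early value of these 4 RNAs overlapped a late one there, and the share of tested genes without such overlap is not given. Malat1, Neat1 and Miat passed adjustment, as 22.7% of tested genes did. Meg3 was not called without SMA early replicate 1 (-1.30) or 2 (-1.32). Among the hosts Snhg8 rose, from 11.7 and 9.59 FPKM to 15.4, 13.8 and 15.8 FPKM, a log2 difference of 0.50 ± 0.12 (SE; limma adjusted p = 0.0517).

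In SMA total RNA 3 members were called, against 32.7% of tested genes. Miat changed from 119 and 68.8 FPKM to 29.6, 31.9 and 17.1 FPKM, a log2 difference of -1.84 ± 0.40 (SE; limma adjusted p = 0.0704). Meg3 changed by -1.24 ± 0.31 (SE; limma adjusted p = 0.0837) and lost its call without SMA early replicate 1 (-1.03). Snhg12 changed by -0.17 ± 0.05 (SE; limma adjusted p = 0.12) and was called in 0 of 5 fits that left out 1 replicate. Late minus early medians here moved with transcript length too. They were 0.13, -0.04, -0.09 and -0.14 over quartiles of protein-coding genes from short to long.

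In control total RNA 2 members were called, against 40.3%: Miat (-0.45 ± 0.13, SE) and Neat1 (-0.45 ± 0.13, SE) were lower late, and each kept its call in 2 of 5 fits that left out 1 replicate. In control polysomal RNA 2 hosts were called, against 42%: Gas5 was higher (0.27 ± 0.09, SE) and Snhg6 lower (-0.51 ± 0.17, SE). Gas5 kept its call in 1 of 5 such fits and Snhg6 in 2 of 5. None of these 4 passed adjustment.

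The stage difference of the SMA effect was tested as an interaction of genotype and stage. In polysomal RNA 3 members were called, against 13.7% of tested genes. Late minus early, the SMA effect differed by -1.05 ± 0.24 (SE; limma adjusted p = 0.234) for Malat1 and by -1.81 ± 0.52 (SE; limma adjusted p = 0.298) for Meg3, and both were called in all 10 fits that left out 1 replicate. That on Snhg8 was higher late, by 0.40 ± 0.17 (SE; limma adjusted p = 0.362), and was called in 3 of 10. In total RNA 3 members were called, against 10.1%: Meg3 (-1.18 ± 0.40, SE), Miat (-1.39 ± 0.45, SE) and Snhg12 (-0.18 ± 0.06, SE). Without SMA early replicate 1, the library that stood apart, Meg3 and Miat were not called (-0.98 and -0.99). Meg3 was not called without control early replicate 2 either (-1.17), nor Snhg12 without control early replicate 1 (-0.17). Snhg12 also lost its call with genes above 0 in every library, equal medians, 1 model over all libraries and both late replicates 3 left out, at values from -0.18 to -0.15. None of the 6 passed adjustment. The stage difference also moved with transcript length. Over quartiles of protein-coding genes from short to long, its median was 0.24, 0.09, -0.02 and -0.17 in polysomal RNA. In total RNA it was 0.22, 0.04, -0.07 and -0.20. After the length correction Snhg8 in polysomal RNA stood at 0.23 and was not called, while the other calls were kept.

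The snoRNAs inside the hosts were barely measured. Of 17 annotated snoRNA rows on the same strand within Gas5, Snhg6, Snhg8 and Snhg12, 12 were listed at 0 in all 20 libraries, among them all 10 of Gas5, including Snord47, Snord78 and Snord80. Snora44 and Snora61, H/ACA snoRNAs within Snhg12, were above 0 in every library. Snora44 measured 947, 555 and 617 FPKM in total and 659, 499.6 and 614 FPKM in polysomal RNA of late-symptomatic controls, and the fractions overlapped. Snora61 measured 147, 297 and 254 FPKM in total and 123, 196 and 281 FPKM in polysomal RNA, with overlap as well. Their host Snhg12 was separated between the same libraries. FPKM of RNAs this short depend on the length correction of the estimate, and the rows overlap host exons in the annotation, so reads may be shared.

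Genes whose pattern was most like that of 2 members were found by Pearson's r of log2(FPKM + 0.1) over the 20 libraries, as a description. Both fractions enter these values, so any gene low on polysomes will rank high. Nearest to Gas5 were Snhg8 (r = 0.989), Rpl21 (r = 0.989) and 1500012F01Rik (r = 0.985), the row of Zfas1, another snoRNA host. Nearest to Malat1 were Gm20417 (r = 0.992), whose row shares the listed locus of Malat1, Neat1 (r = 0.967) and Dennd1b (r = 0.967), a protein-coding gene. Gas5 thus sat with a further host and a ribosomal protein mRNA, and Malat1 with its genomic neighbour.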

How the data were processed

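Total and polysomal RNA of 20 brain libraries was sequenced by the study from TruSeq stranded total RNA libraries. Per the labels and methods, reads were aligned with TopHat2 2.0.14 to GRCm38.p4 and quantified with Cufflinks 2.2.1 on Gencode M6 genes, and the authors deposited 1 table of FPKM per gene, rounded to 0.01. FPKM are relative to each library and carry no counts, so count models were not used and depth is unknown. Every column was matched to its sample by the labels. No 2 columns were identical. Replicates of a group are taken as separate brains, while the labels do not say which total and polysomal libraries share one.

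Values were taken as log2(FPKM + 0.1). Genes averaging 1 FPKM or more over the 20 libraries were fitted with limma 3.58.1 (R 4.3.3, eBayes with a trend) in 16 comparisons, without a block, and called at an unadjusted p under 0.05, the threshold of the study, with Benjamini-Hochberg adjusted p beside it. The fits were tested on simulated data. With 3 libraries against 3 an exact permutation test could not go below p = 0.1, and with 2 against 2 not below 0.333. The share of all tested genes whose groups did not overlap is not given, so statements on overlap only describe the values. Gene positions are from Gencode M21, and list genes were matched by symbol or gene ID. Named genes were the members, the 2 highest and 2 lowest genes of each list in late controls, list genes with an adjusted p under 0.05 between genotypes, and the 3 genes most like Gas5 and Malat1. Some further list genes were also named, and those called between genotypes were chosen after their values were seen. The members and lists were chosen with earlier results of these data known. Alternatives were another pseudocount (0.01 or 1), other filters, scaling to equal protein-coding medians, no trend and 1 model over all libraries. Further alternatives were a replicate block, a length correction (lowess, span 0.3) and leaving out each replicate number. In comparisons within 1 fraction the block joins same-numbered libraries of different brains.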

Additional observations from a re-analysis of the deposited data

Results flagged for a closer look

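Results are listed here where an effect differed between 2 groups by the interaction test of limma, at an unadjusted p under 0.05. The SMA effect differed between the early and the late stage in total RNA for Meg3 (-1.18), Miat (-1.39) and Snhg12 (-0.18), given as late minus early log2 differences. In polysomal RNA it differed for Malat1 (-1.05), Meg3 (-1.81) and Snhg8 (0.40). The polysome association differed between late-symptomatic SMA and control brain for Snhg8 (-0.26) and Snhg12 (0.23). None of these 8 results passed adjustment over all tested genes. Groups held 2 or 3 libraries, so single outlying samples were not tested.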

How the results depend on the processing

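Member values were refitted for polysomal against total RNA and, in the other comparisons, for called members. Of these 973 refits 810 kept direction and side of the threshold, 152 fell short of it, and none changed sign. The other 11, all of Meg3 in polysomal against total RNA, newly passed it. Numbers of members called moved as follows. At an adjusted p, calls fell to 2 and 0 for polysomal against total RNA in early control and early SMA brain, to 3 for late against early SMA polysomal RNA, and to 0 for SMA against control (early total, early polysomal, late total), the late change in polysome association, the other 3 late against early comparisons and both stage differences. For SMA against control in late polysomal RNA, calls rose from 0 to 2 with only genes above 0 in every library, with 1 model over all 20 libraries, with the replicate block, with the block and length correction, and with both late replicates 3 left out (added after seeing the data), and to 1 with the length correction. One model over all libraries gave 1 call in late total SMA against control, 0 in the late change in polysome association, 5 in late against early SMA total (adding Gas5, Snhg8 and Malat1) and 0 in both control stage comparisons. Calls of the late change in polysome association were 1 with equal medians or the length correction, where Snhg12 lost its call. They were also 1 with both late replicates 3 left out, where Snhg8 and Snhg12 lost theirs and Meg3 was newly called (-0.37). Meg3 was newly called with the replicate block too (-0.32), and with the block and length correction (-0.27), where Snhg12 was lost. In late against early control polysomal RNA calls were 1 with either filter on values above 0 and with equal medians. In control total RNA they were 1 with a mean of at least 5 FPKM. Among single calls, early polysomal Neat1 in SMA against control was lost with pseudocount 0.01 (0.67), with genes above 0 in at least 1 library, with equal medians, without the trend and with the replicate block, alone or with the length correction, and Snhg8 in the polysomal stage difference with 1 model, the length correction and both late replicates 3 left out. The causes of these moves were not tested.

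Leaving out 1 replicate number gave, for SMA against control, 0 to 4 calls in early total, 0 to 3 in early polysomal, 2 to 3 in late total and 0 to 2 in late polysomal RNA. It gave 0 to 1 and 0 to 2 for the early and late change in polysome association, 1 to 5 and 4 to 6 for late against early SMA total and polysomal RNA, 0 to 3 and 0 to 2 for controls, and 1 to 6 and 2 to 4 for the stage difference in total and polysomal RNA. A lone sample was then assumed to vary like the other group. Polysomal against total RNA at the early stage was not refitted with a replicate left out, since 1 library would stand against 1 and the model over all libraries was not run that way, and late it kept 6 to 8 calls. The gene lists were fitted at the settings of the report only.

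The labels do not say that a replicate number joins a total to a polysomal library. Over all tested genes the deviations of same-numbered libraries correlated between -0.04 and 0.11, so the numbers were not used as pairs. Over 9779 protein-coding genes of at least 5 FPKM they correlated between 0.12 and 0.54 and every library matched its own number best, and Xist was at 1 FPKM or more in 4 replicates of the same group and number in both fractions, as a hint from the data. In comparisons within 1 fraction the block joined something else, namely same-numbered libraries of different brains across genotypes or stages. The labels do not link these, so such calls rest on no known pairing. With that block, calls rose from 3 to 5 in the polysomal stage difference (adding Snhg6 and Miat). Between the fractions of a group, the block called Meg3 lower on polysomes, at the same log2 differences, in late controls (-0.30) and late SMA (-0.62). The block also called Meg3 in late total SMA against control (-0.46) and in the late change in polysome association (-0.32). In late against early comparisons it added Snhg8 in control total (-0.18), Meg3 in control polysomal (0.78) and Gas5 in SMA polysomal RNA (0.25). It lost Neat1 in control total, Gas5 in control polysomal and Snhg12 in SMA total RNA.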

Other observations

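Mitochondrially encoded mRNAs gave calls between genotypes in polysome association at the early-symptomatic stage. Of the 9 that no library listed at 0, 7 were called by limma (unadjusted p under 0.05) with a higher polysome association in early SMA than in early control brain, against 2.32% of tested genes called in either direction, and none of the 9 was called at the late-symptomatic stage. For mt-Nd4, a subunit of respiratory complex I, total RNA held 546 and 426 FPKM in early controls and 253 and 392 FPKM in early SMA, and polysomal RNA held 63.3 and 84.7 FPKM in controls and 106 and 138 FPKM in SMA. The groups did not overlap in either fraction. The difference in polysome association was 1.34 for mt-Nd4 and from 0.71 (mt-Nd6) to 1.41 (mt-Nd4l) among those called. None passed adjustment, and the lowest total value was that of SMA early replicate 1, the library that stood apart. The count was not refitted without it. All 7 calls come from the same few libraries and are not independent of each other.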
